A study of Rattus norvegicus with 24 samples.

Results

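The early growth response genes Egr1, Egr2 and Egr3, the immediate early response genes Ier2, Ier3 and Ier5, and Srf were examined in rat muscle 1 h after the last of a series of daily resistance training bouts. The members were taken as every transcript that carried 1 of these 7 gene symbols, which gave 10 transcripts, and transcripts were summed per gene, so that the members were 7 of 15273 genes. RNA was sequenced from the tibialis anterior of 12 male Wistar rats, 3 after each of 2, 10, 20 and 30 days of training. In every rat the left hindlimb had been trained once daily through an implanted pulse generator that stimulated the common peroneal nerve while the plantarflexors resisted, and the right, unstimulated tibialis anterior served as the contralateral control. The design text of the series names 4 animals per time point, and 3 per time point are analysed here. All trained muscles were taken 1 h after a bout, so that the effect of the last bout and the effect of the length of training cannot be told apart, and sham-operated muscles were not analysed here. Every sample was a piece of whole muscle, in which fewer cells of a type and less RNA per cell cannot be told apart.

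Immediate early genes are transcribed within minutes of a stimulus without the need for new protein. In muscle they respond to contraction, stretch and growth factors. Srf, serum response factor, is the transcription factor that binds CArG boxes in the promoters of many of them, either with Elk-type cofactors downstream of the Ras-ERK kinases or with myocardin-related cofactors that follow the actin cytoskeleton. Egr1, Egr2 and Egr3 are zinc finger transcription factors that bind GC-rich sites and induce Nab2, which in turn represses them. Ier2 and Ier5 are related regulatory proteins, and Ier5 acts with the heat shock factor Hsf1 and a phosphatase. Ier3 is an unrelated small protein linked to survival and stress signalling.

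In the Rnor_6.0 annotation used by the authors, Egr1 lies on chromosome 18 from 27657628 to 27661430 and Srf on chromosome 9 from 16737642 to 16747226, both on the plus strand. Egr2 lies on chromosome 20 from 22454463 to 22459026 on the minus strand, and Egr3 on chromosome 15 from 51756736 to 51760723 on the plus strand. Among the Ier genes, Ier3 lies on chromosome 20 from 3438798 to 3440003, Ier5 on chromosome 13 from 72742210 to 72744304 and Ier2 on chromosome 19 from 25774143 to 25775660, all on the minus strand. The table labels the single Ier2 transcript as a pseudogene and the other transcripts as protein coding.

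Promoter windows of 300 bases, from 250 bases before to 50 bases after the annotated start, were read from RefSeq on build GRCr8 and matched 5 of the 7 members. Egr3 and Ier3 had no entry. Windows with a motif match are shown because the members differ in which site they carry. They are chr18:26736828-26737127 on the plus strand for Egr1, chr20:21054392-21054691 on the minus strand for Egr2, chr9:21923826-21924125 on the plus strand for Srf and chr19:40399123-40399422 on the plus strand for Ier2. Each is written 5′ to 3′ along its gene, and capitals mark the matches to the motifs searched: CArG boxes in Egr1 and Egr2, an Egr-type site followed by CArG boxes in Srf, and a cAMP response element in Ier2.
Egr1: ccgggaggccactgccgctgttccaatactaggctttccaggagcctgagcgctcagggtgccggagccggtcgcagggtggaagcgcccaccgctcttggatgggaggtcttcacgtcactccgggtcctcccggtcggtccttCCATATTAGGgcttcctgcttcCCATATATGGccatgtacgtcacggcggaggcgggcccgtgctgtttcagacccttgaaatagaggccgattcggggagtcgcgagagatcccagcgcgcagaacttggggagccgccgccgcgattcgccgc
Egr2: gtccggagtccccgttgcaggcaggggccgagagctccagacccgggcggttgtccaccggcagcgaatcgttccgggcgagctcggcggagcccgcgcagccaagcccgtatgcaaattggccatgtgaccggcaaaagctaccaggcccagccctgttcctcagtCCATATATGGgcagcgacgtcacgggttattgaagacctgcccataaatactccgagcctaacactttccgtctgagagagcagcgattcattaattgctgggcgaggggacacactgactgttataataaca
Srf: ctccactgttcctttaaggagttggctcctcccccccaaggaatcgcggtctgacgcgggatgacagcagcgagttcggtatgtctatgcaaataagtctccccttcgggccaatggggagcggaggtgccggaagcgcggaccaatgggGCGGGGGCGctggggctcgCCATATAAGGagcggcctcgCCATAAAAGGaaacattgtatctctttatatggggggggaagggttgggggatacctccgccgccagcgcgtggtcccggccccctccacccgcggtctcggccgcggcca
Ier2: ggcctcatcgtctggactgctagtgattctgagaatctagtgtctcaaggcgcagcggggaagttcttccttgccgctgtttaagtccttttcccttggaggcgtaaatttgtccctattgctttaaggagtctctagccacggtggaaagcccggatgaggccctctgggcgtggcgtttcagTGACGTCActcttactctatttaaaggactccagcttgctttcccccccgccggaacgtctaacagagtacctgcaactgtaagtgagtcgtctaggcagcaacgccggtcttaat

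CArG boxes began at positions -105 and -83 from the start of Egr1, at -83 for Egr2, and at -81 and -61 for Srf itself. The motif was searched on both strands and was found in 1.64% of 33469 promoter windows, and 2 or more were found in 7 windows (0.0209%), which included Egr1 and Srf. The Egr-type site GCGNGGGCG began at -100 in Srf and was found in 4.98% of all windows. The cAMP response element TGACGTCA began at -66 in Ier2 and was found in 1.83% of all windows. The Ier2 window was matched by symbol, and it lies on the plus strand in GRCr8 while the quantified transcript lies on the minus strand in Rnor_6.0, so whether both are the same locus was not examined. The AP-1 site TGANTCA, carried by 7.33% of all windows, was found in none of the 5 members, and the Ier5 window held no match to any of the 4 motifs. Among tested genes with a promoter entry, 1.36% carried a CArG box, against 1.4%, 1.64%, 1.72% and 2.16% of the genes called higher in trained muscle at 2, 10, 20 and 30 days. GCGNGGGCG, TGACGTCA and TGANTCA were found in 10.2%, 3.0% and 4.83% of tested genes. TGANTCA was found in 7.23%, 7.11%, 7.27% and 7.72% of the genes called higher at 2, 10, 20 and 30 days. Over the same days GCGNGGGCG was found in 10.8% to 12.3% of the genes called higher. TGACGTCA was found in 3.54% of them at 2 days, and in 2.26% to 2.63% at the later days. Differences between these shares were not tested. A match is a description of the letters in this window and no measure of binding.

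**Figure D1:**
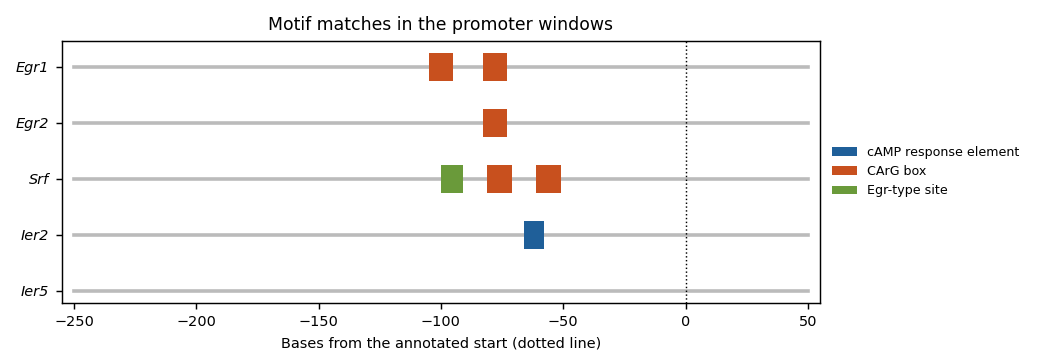
Motif matches in the RefSeq promoter windows of 5 genes, with distance from the annotated start in bases on the horizontal axis and 1 row per gene. CArG boxes lie between positions -105 and -52 in Egr1, Egr2 and Srf, the Egr-type site in Srf begins at -100 and the cAMP response element in Ier2 at -66.

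Values below are transcript values, taken as TPM-type, after median-of-ratios scaling of each muscle, summed per gene. That they are scaled for transcript length is inferred and was not examined. They keep no sequencing depth, so the precision that depth gives is unknown. For each day limma was run on log2(value + 1), trained muscles of 1 day against all 12 contralateral muscles, with Benjamini-Hochberg adjustment over 11196 genes and a threshold of 0.05. Fold changes on this scale understate the change of genes with low values. The 4 comparisons share their 12 controls. A second fit set each trained muscle against the contralateral muscle of the same rat, with animal as a block, and its value is given where it changed a call of one of the 7 genes.

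Muscle fibre genes had high values throughout, with Ckm at 15502 ± 1102 (SD, n = 12) in contralateral muscle. Of 7 tested fibre markers, 0, 3, 1 and 1 were called higher and 3, 3, 4 and 3 lower at 2, 10, 20 and 30 days. Pvalb had log2 changes of -0.98, -2.27, -3.23 and -3.16, and Mb of -0.64, 0.57, 0.74 and 0.65. Mitochondrial transcripts took between 23.7% and 44.6% of the deposited value, and the 3 trained muscles of 30 days (40.4% to 44.6%) together with contralateral replicate 1 of 30 days (44.2%) held the highest shares. Scaling factors ran from 0.778 to 1.14. On the values as deposited the median change over all genes at 30 days was -0.18 on the log2 scale, against -0.01 after scaling. Macrophage markers were called higher in 4, 5, 6 and 6 of the 6 tested at 2, 10, 20 and 30 days, and their summed value was 12.9 to 28.8 in contralateral and 40.0 to 135 in trained muscles. Of these, Adgre1 reached at most 0.73 in contralateral muscle, below the filter minimum of 1. It could be tested only because it was high in trained muscles, so its calls at 20 and 30 days are a description. Fibroblast markers were called higher in 4, 5, 5 and 5 of 5, with summed values of 74.6 to 253 in contralateral and 301 to 982 in trained muscles. Ptprc and Itgam were below the filter, as were the neutrophil markers S100a8, S100a9 and Csf3r. The part of these cells in the results below was not tested.

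In trained muscle, 6 of the 7 genes were called higher at 2 days and 6 at 10 days, 5 at 20 days and 3 at 30 days, where 15.4%, 15.6%, 11.7% and 11.1% of all tested genes were called higher (28.9%, 28.9%, 21.4% and 20.6% in either direction). These counts include Egr2 and Egr3, which reached the filter on low values only in trained muscles (8 and 3 muscles, and no contralateral one) and so could be tested only because they were high there. For these 2 genes the counts are a description. Of the 5 genes that reached it in all 24 muscles, 4, 4, 3 and 2 were called higher. Egr1, Egr2 and Ier5 were called higher at all 4 days, as were 5.24% of all genes, and were higher in the trained than in the contralateral muscle of 12 of 12 rats, as were 8.45% of all genes. All 3 trained muscles of a day lay above all 12 contralateral muscles for Egr1, Egr2 and Ier5 at every day and for Egr3 at 2, 10 and 20 days, where 8.57%, 10%, 8.23% and 7.48% of all genes did so at 2, 10, 20 and 30 days. The median change of the 7 genes was 0.89, 0.87, 1.01 and 0.23 on the log2 scale, beside -0.01, -0.03, -0.03 and -0.01 over all genes. With animal as a block, 21.6%, 20.1%, 17.4% and 12.3% of all genes were called, and the calls of Ier2 at 2 and 10 days and of Srf at 2 days did not pass.

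**Figure D2:**
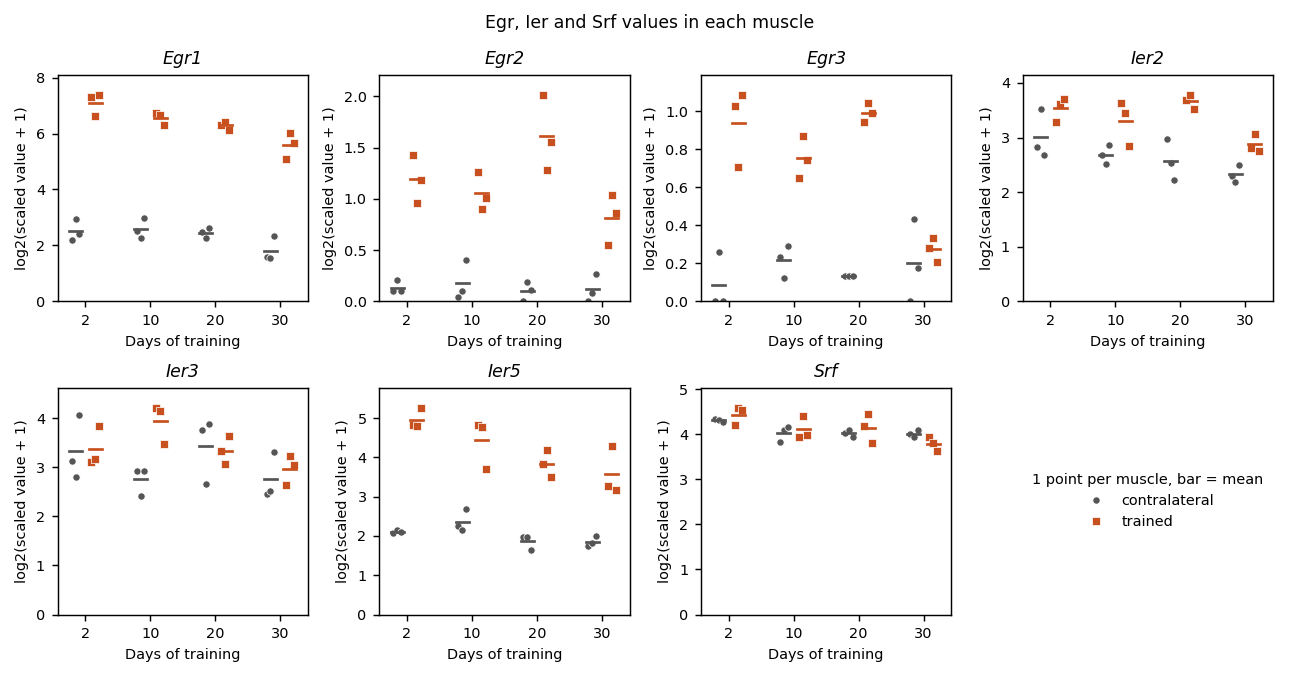
Scaled value of each gene in each muscle as log2(value + 1), by days of training. Points are single muscles (3 per group and day) and bars are group means. For Egr1, Egr2 and Ier5 all trained points lie above all contralateral points, while for Srf the 2 groups overlap.

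Egr1 had the largest change of the 7. Contralateral muscles held values from 1.89 to 6.97 with a median of 4.13 (mean 4.28 ± 1.54, SD, n = 12). The trained muscles had values of 156, 98.3 and 165 after 2 days, 105, 99.8 and 78.0 after 10 days, 79.1, 84.7 and 69.7 after 20 days, and 33.4, 63.5 and 49.1 after 30 days. Every trained muscle lay far above every contralateral muscle, and the trained values were lowest at 30 days.

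At 2 days Egr1 was higher by 4.76 on the log2 scale (standard error 0.24, adjusted p = 6.00e-13), a 27.1-fold difference. It was 4.22, 3.96 and 3.25 at 10, 20 and 30 days (adjusted p = 5.50e-12, 2.75e-11 and 1.46e-09), or 18.7-fold, 15.5-fold and 9.50-fold. By size of change Egr1 was in place 4, 6, 4 and 5 among all tested genes. In level it moved from above 59.1% of genes in contralateral muscle to above 97.5% after 2 days and 93.4% after 30 days.

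Between trained groups, Egr1 was lower at 30 than at 2 days, with a difference of -1.51 on the log2 scale (standard error 0.30, adjusted p = 0.00153). The contralateral muscles of 30 days also had the lowest mean of any day (2.63), with values of 1.97, 1.89 and 4.02 against 3.60, 6.70 and 4.25 at 2 days. Differences between the 2 muscles of a rat were 5.09, 3.69 and 4.98 on the log2 scale at 2 days and 3.53, 4.48 and 3.32 at 30 days. Set this way, the change from 2 to 30 days was -0.81 and did not pass the threshold (adjusted p = 0.290 with animal as a block). The ranges of the within-rat difference overlapped between 2 and 30 days.

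Egr2, best known for its role in the myelinating programme of Schwann cells, was near 0 in contralateral muscle. Its values there ran from 0 to 0.318 with a median of 0.0708, and 2 of the 12 muscles were listed at 0. Trained muscles had values of 1.69, 0.950 and 1.27 after 2 days, 1.40, 0.871 and 1.01 after 10 days, 3.03, 1.44 and 1.94 after 20 days, and 0.463, 1.06 and 0.817 after 30 days. All 12 trained muscles lay above all 12 contralateral muscles. The highest mean was that of 20 days (2.14), though replicate 2 of 20 days (1.44) lay below replicate 1 of 2 days (1.69).

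On the log2(value + 1) scale Egr2 was higher by 1.06, 0.93, 1.49 and 0.68 at 2, 10, 20 and 30 days (standard error 0.13 each, adjusted p = 9.27e-07, 5.23e-06, 7.64e-09 and 3.94e-04). Egr2 passed the filter on low values only through 8 trained muscles, so it could be tested only because it was higher there. With a pseudocount of 0.1 in place of 1 its changes were 2.91, 2.68, 3.55 and 2.20, all past the threshold. Of the Schwann cell markers, 1, 0, 0 and 0 of 6 tested were called higher at 2, 10, 20 and 30 days, and 0, 0, 0 and 2 were called lower. With animal as a block 0, 1, 0 and 1 were called higher and 0 lower at each day. The part of Schwann cells in the Egr2 values was not tested. No contrast of Egr2 between trained groups passed the threshold, the largest being -0.80 for 30 against 20 days (adjusted p = 0.0914).

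Egr3, the third zinc finger member, was called higher at 2, 10 and 20 days and not at 30 days. Contralateral values ran from 0 to 0.351 with a median of 0.0980, and 3 muscles were listed at 0. Values in trained muscle were 1.04, 0.633 and 1.12 after 2 days, 0.570, 0.827 and 0.674 after 10 days, 0.924, 1.06 and 0.988 after 20 days, and 0.214, 0.258 and 0.155 after 30 days. The trained muscles of the earlier 3 time points lay above all contralateral muscles, and those of 30 days lay within the contralateral range.

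Egr3 was higher by 0.78, 0.59 and 0.83 at 2, 10 and 20 days (standard error 0.09 each, adjusted p = 9.90e-07, 3.18e-05 and 5.60e-07), and by 0.11 at 30 days, which did not pass (adjusted p = 0.432). Egr3 passed the filter only through 3 trained muscles, those of replicates 1 and 3 of 2 days and replicate 2 of 20 days, so it could be tested only because it was high at these times. With a pseudocount of 0.1 its changes were 2.33, 1.97, 2.45 and 0.62, with the same calls. Its level in trained muscle was lower at 30 days than at 2 days (-0.67, adjusted p = 5.63e-04), 10 days (-0.48, adjusted p = 0.0233) and 20 days (-0.72, adjusted p = 0.0197).

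Within rats, the difference of Egr3 between the trained and the contralateral muscle was smaller at 30 than at 2 days by -0.78 (standard error 0.19, adjusted p = 0.0474 with animal as a block), and the differences from 10 and 20 days did not pass (adjusted p = 0.361 and 0.745). The change from 2 to 30 days passed in 1 of the 6 fits that left out 1 rat of either time point, that without replicate 2 of 2 days (adjusted p = 0.0387). The others gave adjusted p between 0.0578 and 0.160.

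**Figure D3:**
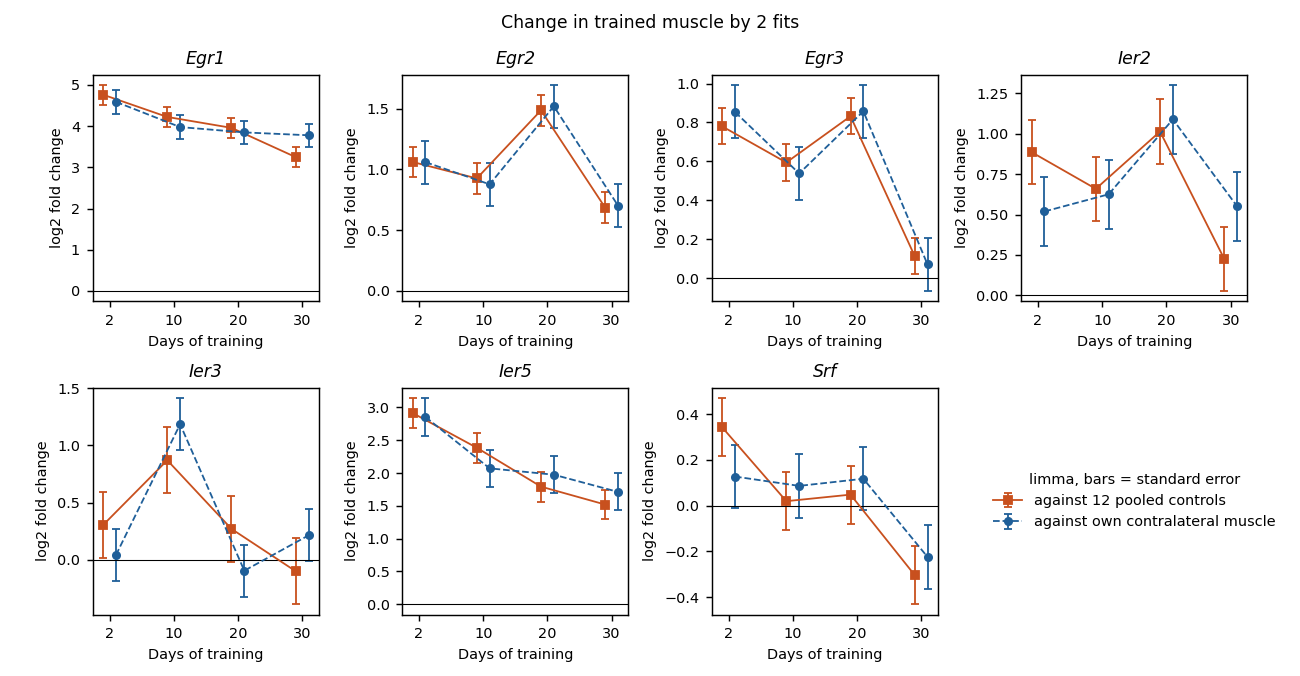
Log2 fold change of each gene in trained muscle by days of training, with bars of 1 standard error, from 2 limma fits: against the 12 pooled contralateral muscles (squares) and against the contralateral muscle of the same rat (circles). Egr1 and Ier5 stay well above 0 in both fits, and Egr3 is near 0 at 30 days in both (0.11 and 0.07).

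Ier5 had the largest change after Egr1 on the log2(value + 1) scale, an order that held at 2 days with a pseudocount of 0.1 but not later. There its changes were 3.23, 2.68, 2.06 and 1.76, and those of Egr2, given above, were about equal at 10 days and larger at 20 and 30 days. Contralateral values ran from 2.13 to 5.43 with a median of 3.11 (mean 3.20 ± 0.849, SD, n = 12). The trained values were 27.5, 27.0 and 36.9 after 2 days, 27.3, 26.5 and 11.9 after 10 days, 13.2, 17.3 and 10.3 after 20 days, and 8.60, 18.4 and 7.93 after 30 days. No trained muscle reached down into the contralateral range, and the spread between rats was wide at 10 and at 30 days.

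Ier5 was higher by 2.91, 2.38, 1.79 and 1.52 on the log2 scale at 2, 10, 20 and 30 days (standard error 0.23 each, adjusted p = 1.05e-09, 2.70e-08, 3.12e-06 and 3.96e-05), or 7.54-fold, 5.22-fold, 3.46-fold and 2.87-fold. In trained muscle Ier5 was lower at 20 than at 2 days (-1.12, adjusted p = 0.0159) and at 30 than at 2 days (-1.40, adjusted p = 0.00188). With animal as a block these contrasts were -0.88 and -1.14 and did not pass (adjusted p = 0.263 and 0.136). The contrast of 20 against 2 days also did not pass without replicate 3 of 2 days (-0.98, adjusted p = 0.0870) or without replicate 3 of 20 days (-0.95, adjusted p = 0.0791).

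The 2 annotated Ier5 transcripts, which cover nearly the same bases, did not share the change evenly. Ier5-202 was higher by 3.03, 2.51, 1.76 and 1.27 on the log2 scale, and Ier5-201 by 1.82, 1.34, 1.21 and 1.43. How reads were split between these overlapping transcripts was not examined, so the value per transcript is uncertain and the sum per gene is used. Ier5l, a related gene, was called higher at 2 and 10 days (0.75 and 0.53, adjusted p = 0.00457 and 0.0407, with 0.36 and adjusted p = 0.187 at 10 days with animal as a block) and had changes of 0.48 and 0.10 at 20 and 30 days that did not pass.

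Ier2 was called higher at 2, 10 and 20 days, with changes that were small beside those of Egr1 and Ier5. Contralateral values ran from 3.53 to 10.5 with a median of 5.08 (mean 5.48 ± 1.90, SD, n = 12). Values in trained muscle were 8.74, 11.2 and 12.03 after 2 days, 11.4, 9.90 and 6.19 after 10 days, 11.9, 12.7 and 10.5 after 20 days, and 6.02, 7.32 and 5.75 after 30 days. The highest contralateral muscle, replicate 2 of 2 days, reached into the range of the trained muscles, and the 2 groups overlapped at all 4 days.

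On the log2 scale the changes of Ier2 were 0.89 (standard error 0.20, adjusted p = 0.00157), 0.66 (adjusted p = 0.0144) and 1.01 (adjusted p = 5.86e-04) at 2, 10 and 20 days, and 0.23 (adjusted p = 0.464) at 30 days. With animal as a block the changes were 0.52 at 2 days (adjusted p = 0.0999), 0.63 at 10 days (adjusted p = 0.0547), 1.09 at 20 days (adjusted p = 0.00357) and 0.55 at 30 days (adjusted p = 0.114). The trained muscle was above its contralateral muscle in 11 of 12 rats, with replicate 3 of 10 days at -0.02. At 10 days the call did not pass without replicate 1 (0.50, adjusted p = 0.143) or replicate 2 (0.59, adjusted p = 0.0816).

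Ier3 was called higher only at 10 days. Its contralateral values had the widest spread relative to the mean of the 5 genes with a mean above 1, and ran from 4.37 to 15.8 with a median of 6.59 (mean 8.07 ± 3.90, SD, n = 12). Trained muscles had values of 7.66, 8.04 and 13.3 after 2 days, 17.4, 16.7 and 10.1 after 10 days, 9.05, 7.37 and 11.4 after 20 days, and 5.21, 8.37 and 7.30 after 30 days. The 10-day muscles of replicates 1 and 2 lay above every contralateral muscle, and all other trained muscles lay within the contralateral range.

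At 10 days the change of Ier3 on the log2 scale was 0.87 (standard error 0.29, adjusted p = 0.0256), and against the contralateral muscles of the same rats it was 1.18 (adjusted p = 0.00261). The call did not pass without replicate 1 (0.74, adjusted p = 0.143) or replicate 2 (0.77, adjusted p = 0.120). In a limma fit of single transcripts, Ier3-201 was called at 10 days (0.97, adjusted p = 0.0394) and Ier3-202 was not (0.28, adjusted p = 0.568). How reads were split between these transcripts was not examined. Changes at 2, 20 and 30 days were 0.30, 0.27 and -0.10 (adjusted p = 0.457, 0.565 and 0.848). Within rats the differences at 10 days were 1.28, 1.72 and 0.55, and those of the other 9 rats ran from -0.43 to 0.71 with both signs.

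**Figure D4:**
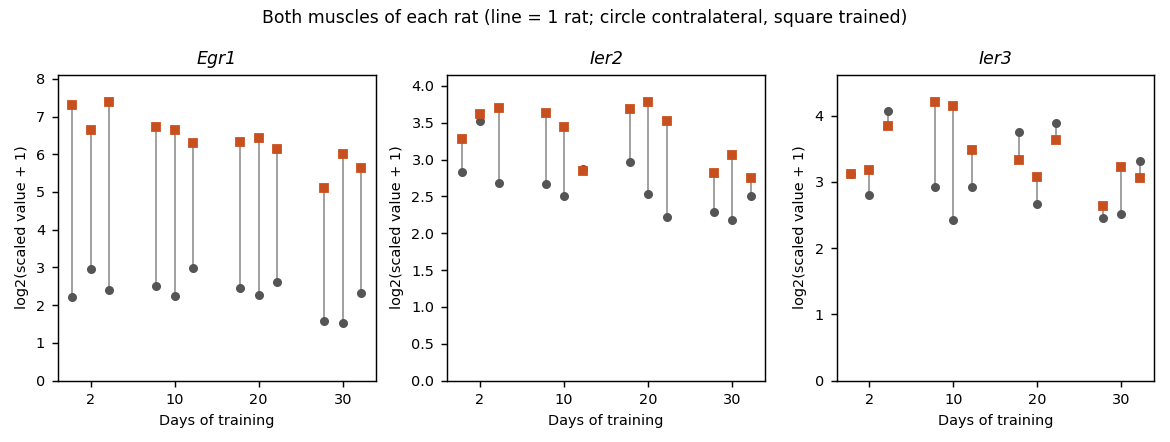
Both muscles of each rat for Egr1, Ier2 and Ier3 as log2(value + 1), by days of training. Each line joins the contralateral (circle) and the trained muscle (square) of 1 rat. For Egr1 the trained muscle is higher in 12 of 12 rats, for Ier2 in 11 and for Ier3 in 7.

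Srf had the highest level of the 7 genes in contralateral muscle, with values from 13.1 to 19.3 and a median of 16.2 (mean 16.2 ± 1.91, SD, n = 12). Trained values were 17.4, 22.8 and 22.1 after 2 days, 14.5, 20.1 and 14.9 after 10 days, 17.1, 20.7 and 12.96 after 20 days, and 14.3, 12.96 and 11.4 after 30 days. The groups overlapped at every day, and the trained muscle was above its contralateral muscle in 6 of 12 rats.

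Its log2 fold change of 0.34 at 2 days (standard error 0.13, adjusted p = 0.0459) lay at the edge of the threshold, and with animal as a block it was 0.13 (adjusted p = 0.556). The call also did not pass without trained replicate 2 (0.27, adjusted p = 0.264) or replicate 3 (0.29, adjusted p = 0.184) of 2 days, without contralateral replicate 1 of 30 days (0.33, adjusted p = 0.0580), or with a pseudocount of 0.1 (0.36, adjusted p = 0.0526). At 10 and 20 days the changes were 0.02 and 0.05 (95% confidence intervals from -0.24 to 0.28 and from -0.21 to 0.31).

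At 30 days the change of Srf was -0.30 and did not pass (adjusted p = 0.0946), but on the values as deposited it was -0.51 (adjusted p = 0.00938). In trained muscle Srf was lower at 30 than at 2 days (-0.65, adjusted p = 0.00819), a contrast that was -0.58 without replicate 2 of 2 days (adjusted p = 0.0567) and -0.35 with animal as a block (adjusted p = 0.357).

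Across the 6 contrasts between trained groups, the largest number of calls was for 30 against 2 days, where Egr1, Egr3, Ier5 and Srf, 4 of the 7 genes, were lower. In that contrast 15% of all genes were called and 7.91% were called lower. With animal as a block 1 of the 7 genes, Egr3, and 2.8% of all genes were called. Ier5 was the 1 gene called for 20 against 2 days (8.05% of all genes), and Egr3 was the 1 gene called for 30 against 10 days (3.94%) and for 30 against 20 days (0.0357%). Egr3 reached the filter only through trained muscles of 2 and 20 days. Its calls in these contrasts are therefore a description, as is its part in the counts. Egr1, Ier5 and Srf reached the filter in all muscles. None was called for 10 against 2 days or 20 against 10 days by limma (1.93% and 0.17% of all genes), where the count at an unadjusted p under 0.05 was 0 for the former and 2, Egr2 and Ier5, for the latter, beside 14.9% and 9.38% of all genes. On the values as deposited, without the scaling per muscle, 6 of the 7 genes were called lower at 30 than at 10 days and 2 at 30 than at 20 days, where 18.4% and 0.0799% of all genes were called. The high mitochondrial share of the 30-day muscles moved with these contrasts and its part in them was not tested.

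A limma F test of the within-rat difference over the 4 days called none of the 7 genes, with 1.14% of all genes called. Egr3, Ier3 and Egr2 had adjusted p = 0.101, 0.127 and 0.249 and were the 3 below 0.05 before adjustment, as were 16.5% of all genes. For Egr1 and Ier5 the adjusted p was 0.544 and 0.338. The 4 contralateral groups were compared in the same way, and none of the 7 genes was called (0.0625% of all genes). Ier5 and Egr1 had adjusted p = 0.389 and 0.430 and were the 2 below 0.05 before adjustment, as were 10.7% of all genes.

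Differences between the muscles of a rat were correlated between members over the 12 rats, in 21 pairs. Egr1 and Ier5 were the 1 pair that passed, with Pearson's r = 0.859 (permutation p = 0.00044, adjusted p = 0.00924) and Spearman's rho = 0.867 (permutation p = 0.00061, adjusted p = 0.0128). Without the 2 rats farthest from the median of Egr1, r was 0.826. After removal of the mean of each day r was 0.797 (exact permutation within days, p = 0.00386), which did not pass over the 21 pairs (adjusted p = 0.0648). Rats of 1 day share their training time, and 3 rats per day are too few for a correlation within a day.

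Among 5860 genes with a mean value of at least 5, those whose within-rat difference followed a member most closely over the 12 rats were ranked by Pearson's r. For Egr1 they were Jun, an AP-1 subunit (r = 0.861), Otud1, a deubiquitinase (r = 0.843), and Ankrd52 (r = 0.825). For Ier5 they were Jun (r = 0.890), Ccn1, a secreted matrix protein (r = 0.879), and Otud1 (r = 0.863). Egr3 was followed by Chtop (r = 0.899), Fosb, another AP-1 subunit (r = 0.875), and Dmap1 (r = 0.839). For Srf the first was Tubb2a, a tubulin (r = 0.934), for Ier3 Tmem115 (r = 0.876), for Ier2 AABR07054362.1 (r = 0.806) and for Egr2 Utp23 (r = 0.764). These values rank genes by likeness over rats, not by size or sign of change, and carry no test. Egr2, Egr3 and Fosb reached the filter on low values only with the trained muscles, so their likeness is a description. Ankrd52 had log2 changes against the pooled controls between -0.47 and -0.17, and Utp23 between -0.42 and -0.03.

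Of the genes that act on Egr proteins, Nab2, the co-repressor, was called higher at all 4 days. Its contralateral value was 0.813 ± 0.206 (SD, n = 12), and it was higher by 1.02, 1.09, 0.96 and 0.62 on the log2 scale (adjusted p = 5.49e-07, 1.69e-07, 1.68e-06 and 5.20e-04). Nab1, its relative, was not called on any day, with changes between 0.17 and 0.29. Egr4 and Wt1 were not analysed here.

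Of 11 tested genes reported as Egr1 targets, 8, 11, 10 and 6 were called higher at 2, 10, 20 and 30 days and none lower, with a median change of 0.62, 0.88, 0.88 and 0.62. The block on animal left 8, 10, 8 and 7 called higher. Fn1, the matrix protein fibronectin, was called at all 4 days with changes from 1.08 to 1.45. This list also holds Nab2, and macrophage and fibroblast markers were higher in the same muscles, as given above. Icam1, also counted here, reached at most 0.86 in contralateral muscle, below the filter minimum of 1. It could be tested only because it was high in trained muscles, so its calls are a description.

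Among 6 tested Srf cofactors, 2, 3, 3 and 3 were called higher (2, 3, 3 and 2 with animal as a block), and Elk1, an ERK-regulated cofactor, was called lower at 2 days alone (-0.42, adjusted p = 0.00454), a call that did not pass with animal as a block. Abra, an actin-binding activator of Srf in striated muscle, had changes of 1.40, 1.34, 0.73 and 0.76. Fhl2, a LIM-domain cofactor, had 1.04, 1.19, 0.96 and 0.62, of which the last did not pass with animal as a block (0.50, adjusted p = 0.162). Fhl2 reached at most 0.57 in contralateral muscle, below the filter minimum of 1. It could be tested only because it was high in trained muscles, so its calls, counted above, are a description. Elk3 was called higher from 10 days on. Mrtfa had changes between -0.18 and 0.38 that did not pass, and Mrtfb was not analysed here.

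Of 17 tested cytoskeletal and matrix targets of Srf and its myocardin-related cofactors, 13, 11, 9 and 8 were called higher and 1 lower at each day, with a median change of 0.79, 0.71, 0.55 and 0.40. The block on animal left 9, 10, 8 and 8 called higher. Vcl, the adhesion protein vinculin, had changes of 1.46, 1.40, 0.99 and 0.86, and Ccn2, a matrix signalling protein, 1.62, 1.73, 0.96 and 1.03, all called, though Ccn2 at 30 days did not pass with animal as a block (0.94, adjusted p = 0.0580). Ccn1 was called at 2 days alone (2.22, adjusted p = 0.00185) and had changes of 0.59, -0.98 and -0.80 thereafter. Cardiac actin, Actc1, had a change of 1.24 at 2 days that did not pass (adjusted p = 0.0812). The gene that was lower at each day was Tpm1, a tropomyosin of the thin filament, by -0.28 to -0.58, and with animal as a block no gene of the list was called lower at 2 days.

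Of 14 tested genes of the Ras-ERK cascade, 2, 1, 1 and 0 were called higher and 3, 3, 4 and 3 lower, where 13.5%, 13.3%, 9.64% and 9.46% of all genes were called lower, with median changes between -0.19 and -0.05. In the fit with animal as a block 1, 1, 1 and 0 were called higher and 3, 2, 4 and 1 lower. Mknk1, a kinase downstream of ERK, had changes between -0.63 and -0.42, called at 2 and 20 days and with animal as a block also at 10 days, and Rps6ka2 was called lower at 2 and 10 days (-0.62 and -0.42), the latter not with animal as a block (-0.29, adjusted p = 0.216). Among 5 tested partners of Ier proteins 0, 0, 0 and 1 were called higher and 0, 1, 0 and 0 lower by limma, and none was called with animal as a block. Hsf1 had changes between -0.35 and -0.06 that did not pass.

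Of 26 other tested immediate early genes, 20, 20, 18 and 15 were called higher and 0, 0, 1 and 2 lower, with median changes of 1.72, 1.45, 1.33 and 0.76. Of all tested genes 15.4%, 15.6%, 11.7% and 11.1% were called higher and 13.5%, 13.3%, 9.64% and 9.46% lower. In the fit with animal as a block 20, 19, 18 and 16 of the list were called higher, and 1 lower at each day. Fosl1 and Nr4a2, counted here, reached at most 0.45 and 0.85 in contralateral muscle, below the filter minimum of 1. They could be tested only because they were high in trained muscles, so their calls are a description. Atf3, a stress-induced factor, had the largest change at 2 days (5.53, with 3.98 at 30 days), followed by Fos (4.30 and 2.49) and Csrnp1 (3.82 and 2.76). Egr1, at 4.76 and 3.25, lay between Atf3 and Fos at both times. The order of the list was another at 30 days, when Nr4a3 had the largest change (4.47) and Csrnp1 lay above Fos.

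**Figure D5:**
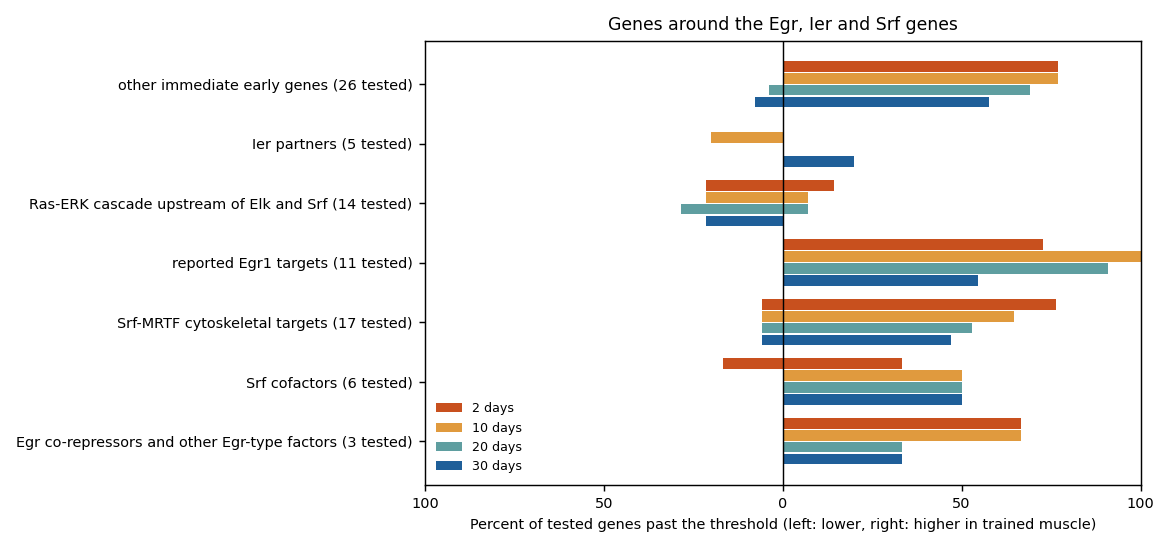
Percent of the tested genes of 7 lists that passed the threshold against the 12 contralateral muscles, by days of training. Bars to the right are genes higher in trained muscle and bars to the left are genes lower. The lists of other immediate early genes, Egr1 targets and cytoskeletal targets have mostly higher genes, and the Ras-ERK list has more lower than higher genes at each day.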

How the data were processed

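RNA from 24 tibialis anterior muscles was enriched for poly-A and sequenced as paired-end reads on a NextSeq 550. In Partek Flow the authors mapped trimmed reads with STAR to Rnor_6.0, quantified against Ensembl release 99 transcripts and named DESeq2 median-of-ratios normalization in their methods. The authors deposited values for 20027 transcripts that sum to 634431 in each sample and were taken here as TPM-type. Depth and the precision it gives are therefore unknown, and no count model was run. A deposited gene-level table and the authors' table of fold changes and p-values were not used.

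Here each sample was divided by a median-of-ratios factor from the 16230 transcripts above 0 in all samples (0.778 to 1.14), and transcripts were summed per gene. Genes at 1 or more in 3 or more samples (11196) were fitted as log2(value + 1) with limma 3.58.1 in R 4.3.3, in 5 groups: 12 contralateral muscles and 3 trained muscles per day, with Benjamini-Hochberg adjustment and a threshold of 0.05. Beyond the rats named in the labels, nothing states how libraries were batched. Correlations used 100000 permutations, and 1296 within days. Tables and plots used Python 3.11.15, numpy 2.4.6, pandas 2.3.3, scipy 1.17.1 and matplotlib 3.10.9.

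The labels tie each trained muscle to the contralateral muscle of the same animal, which is where the pairing comes from. Deviations from group means correlated with a median r of 0.174 within animals (0.0277 to 0.343, above 0.1 in 8 of 12) and -0.00964 between animals. No pair of the 276 was identical. On simulated data for 12 against 3 samples and 11196 genes, 93.4% of changes of 1 and 99.5% of changes of 2 on the log2 scale were recovered, and 4.89% of calls were false.

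The members and the gene and marker lists were chosen with earlier results of these data known. All 7 members are named, and from each list the 2 to 4 tested genes with the largest change at 2 days; some genes that this rule names are not reported here, and Elk3 and Tpm1 were chosen after their values were seen. Alternatives were the values as deposited, a pseudocount of 0.1, no filter, animal as a block, time-matched controls, an intensity trend, single transcripts, omission of single libraries, removal of day means and motifs on the gene strand only. Omission of single rats and other scales in the within-rat fit of Egr3 were added after seeing the data.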

Additional observations from a re-analysis of the deposited data

Results flagged for a closer look

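The within-rat difference of Egr3 between trained and contralateral muscle was smaller at 30 than at 2 days by -0.78 on the log2(value + 1) scale (limma with animal as a block, adjusted p = 0.0474), flagged because the test of the difference between time points passed. Egr3 reached the filter on low values only through replicates 1 and 3 of 2 days and replicate 2 of 20 days, so the contrast could be tested only because Egr3 was high at 2 or 20 days, and the call carries no weight on its own. The 3 rats of 2 days had differences of 1.03, 0.45 and 1.08, all above those of the 3 rats of 30 days (0.28, -0.10 and 0.03). The trained muscles held values between 0.633 and 1.12 at 2 days and between 0.155 and 0.258 at 30 days, and the contralateral muscles between 0 and 0.351. On the values as deposited the change was -0.88 (adjusted p = 0.0402), and with a pseudocount of 0.1 it was -2.32 and did not pass (adjusted p = 0.0970). It passed without replicate 2 of 2 days, and did not pass without replicate 1 (adjusted p = 0.0769) or 3 (0.160) of 2 days or replicate 1 (0.0578), 2 (0.151) or 3 (0.118) of 30 days.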

How the results depend on the processing

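Calls of Egr1 and Ier5 at each day kept their direction and passed under every alternative run. Those of Egr2 at each day and of Egr3 at 2, 10 and 20 days also did, but both genes reached the filter only through trained muscles, so this says nothing of stability, and no single Egr3 transcript passed it. Values carry no depth, so how far low values such as those of Egr2 and Egr3 are limited by counting is unknown, and 3 trained muscles per day limit the rest. With 1 trained muscle left out, the remaining ones were assumed to vary like the other groups. All reversals were of changes that did not pass.

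With animal as a replicate block, 1 of the 7 genes passed for 30 against 2 days instead of 4, and 0 instead of 1 passed for 20 against 2, 30 against 10 and 30 against 20 days. Blocked calls over all genes were 1377 instead of 2304 at 30 days, and 7, 194, 314, 1, 9 and 0 instead of 216, 901, 1677, 19, 441 and 4 for 10 against 2, 20 against 2, 30 against 2, 20 against 10, 30 against 10 and 30 against 20 days. Under the block Ier3 turned to -0.10 at 20 and 0.21 at 30 days (the same values with time-matched controls), Ier3 to 0.17 for 30 against 2 and 0.31 for 30 against 20 days, and Ier2 to 0.11 for 10 against 2 and 0.032 for 30 against 2 days. Beyond Ier2 at 2 and 10 days and Srf at 2 days, the block changed no call of the 7 genes against controls. Time-matched controls gave 2007, 1589 and 1121 genes at 10, 20 and 30 days instead of 3240, 2393 and 2304, with 3 instead of 12 controls per comparison.

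On the values as deposited, 6 of the 7 genes instead of 1 passed for 30 against 10 days and 2 instead of 1 for 30 against 20 days, with 2071 and 9 genes in all. Egr1, Ier2, Ier3, Ier5 and Srf were added to Egr3 in the former and Egr2 in the latter, and Egr2 (-0.54) and Ier2 (-0.96) also passed for 30 against 2 days. They gave 3294 genes for 30 against 2 and 43 for 20 against 10 days. Egr3 turned to -0.0019 for 20 against 2 days and Srf to -0.088 for 20 against 10 days. The cause was not tested. The correlation of Egr1 and Ier5 left 0 pairs past the threshold once day means were removed.

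Leaving out each trained muscle of a comparison in turn, or contralateral replicate 1 of 30 days as the 1 control left out, gave 0 to 2 of the 7 genes for 20 against 2 days, 0 to 2 for 30 against 10 days and 0 to 1 for 30 against 20 days. Over all genes it gave 1513 to 3505 calls at 2 days, 2147 to 3233 at 10 days, 1734 to 2401 at 20 days and 1472 to 2440 at 30 days, 66 to 488 for 10 against 2, 336 to 1328 for 20 against 2, 724 to 2134 for 30 against 2, 2 to 95 for 20 against 10, 110 to 494 for 30 against 10 and 0 to 9 for 30 against 20 days, and, with each contralateral muscle left out in turn, 0 to 12 between contralateral groups. Egr3 for 30 against 10 days passed only without replicate 3 of 10 days, and for 30 against 20 days it did not pass without replicate 2 of 20 days or any replicate of 30 days. Egr2 for 20 against 2 days passed without replicate 1 of 2 days (0.54) or replicate 2 of 20 days (0.59), and Ier5 for 30 against 10 days without replicate 3 of 10 days (-1.24) or replicate 2 of 30 days (-1.22). Small changes turned with single muscles: Srf ran from -0.12 to 0.10 at 10 days, -0.10 to 0.22 at 20 days and -0.12 to 0.20 for 20 against 10 days, Ier3 from -0.23 to 0.069 at 30 days and -0.18 to 0.20 for 20 against 2 days, Egr3 from -0.065 to 0.12 for 20 against 2 days and Ier2 from -0.39 to 0.0035 for 10 against 2 days. On the gene strand only, GCGNGGGCG was found in 2.91% of promoters.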

Other observations

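The 7 promoter windows with 2 or more CArG boxes included, besides Egr1 and Srf, those of 2 other tested genes, named after their values were seen. Dusp5, a phosphatase that acts on ERK, had a log2 fold change of 0.41 at 2 days (standard error 0.14, limma adjusted p = 0.0279), and Hnrnpd, an RNA-binding protein that acts on AU-rich messages, had 0.73 (standard error 0.11, adjusted p = 1.68e-05). The other 3 windows belong to genes that were not tested.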
